A study of Homo sapiens with 66 samples.

Results

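The G2 and mitosis genes are a list of 40 protein-coding genes whose transcripts accumulate as cells pass from S phase into division. A gene of the count table was a member where its Ensembl identifier carries a listed symbol in GENCODE 29. All 40 listed genes were found, among 13331 genes in the table, and all 40 passed the filter on low counts on both scales used here. The study measured 3' ends of polyadenylated RNA (QuantSeq) in KBM7, a near-haploid human cell line from chronic myeloid leukaemia, and asked how transcription changes when single transcription regulators are removed. There were 66 libraries in 22 groups of 3, lettered A, B and C, all taken 6 h after treatment. There were 9 lines with a degron tag on 1 protein, which was CDK9 or a Mediator subunit (MED14, MED6, MED10, MED31, MED28, MED26, MED12 and MED1). Wells of each were given either DMSO alone or dTAG7 at 500 nM, a degrader that recruits the tagged protein to a ubiquitin ligase. Untagged cells (WT) received DMSO, 500 nM dTAG7, 100 nM dBET6, a degrader of the BET bromodomain proteins, or 250 nM THAL-SNS-032, a degrader of CDK9. CDK9 is the kinase of P-TEFb, which releases paused RNA polymerase II, and the MED proteins are subunits of the Mediator complex, of which MED14 is the architectural backbone. The labels describe the replicates as wells, so p-values measure only the spread between these wells, which may be technical. Whether a tagged line is 1 clone is not given in the sources used here.

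Cells express G2 and mitosis genes in a wave that begins in S phase and ends after division. In resting and early-cycle cells the DREAM complex holds their promoters silent, and later the MuvB core of that complex joins MYBL2 (B-MYB) and FOXM1 to activate them. Many of these promoters hold a cell cycle homology region, the CHR, which MuvB contacts, and CCAAT boxes bound by the activator NF-Y. The members were ordered by role. The cyclins, CDK1 and its activators are CCNA2, CCNB1, CCNB2, CDK1, CDC25B, CDC25C and CKS2. The mitotic kinases are AURKA, AURKB, BUB1, BUB1B, NEK2, PLK1 and TTK. Checkpoint adaptors and the machinery that degrades mitotic proteins are BUB3, MAD2L1, CDC20, CDCA3 and UBE2C. Chromosome, centromere and kinetochore proteins are BIRC5, CDCA8, CENPA, CENPE, CENPF, CENPU, MKI67, NUF2 and TOP2A. The motors and assembly factors of the spindle, with the proteins of cytokinesis, are CKAP2, DLGAP5, ECT2, HMMR, KIF11, KIF20A, KIF23, KIF2C, KIF4A, NUSAP1, PRC1 and TPX2.

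The promoters of 6 members whose responses the results turn on are shown first, each as the 120 bases before the annotated start in RefSeq (GRCh38.p14), 5′ to 3′ on the strand of the gene. CCNB1 (cyclin B1, the partner of CDK1) lies at chr5:69167030-69167149 on the plus strand. PLK1 (polo-like kinase) lies at chr16:23678769-23678888, plus. CDC20 (activator of the anaphase-promoting complex) lies at chr1:43358861-43358980, plus. HMMR (a microtubule-bound spindle protein) lies at chr5:163460512-163460631, plus. PRC1 (the bundler of midzone microtubules) lies at chr15:90994536-90994655, minus. CENPU (a centromere protein) lies at chr4:184734097-184734216, minus. Capitals mark the letters searched, TTTGAA or TTCGAA for the CHR and CCAAT for the NF-Y box, each on both strands, so that ATTGG is CCAAT on the opposite strand. CCNB1, PLK1 and CDC20 were among the members that fell in several depletions, and HMMR, PRC1 and CENPU among those that rose relative to other transcripts.
CCNB1: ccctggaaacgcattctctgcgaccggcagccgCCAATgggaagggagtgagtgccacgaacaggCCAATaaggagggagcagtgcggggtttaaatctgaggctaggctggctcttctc
PLK1: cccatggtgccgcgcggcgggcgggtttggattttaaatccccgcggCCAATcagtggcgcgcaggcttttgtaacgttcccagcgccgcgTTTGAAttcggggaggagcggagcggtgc
CDC20: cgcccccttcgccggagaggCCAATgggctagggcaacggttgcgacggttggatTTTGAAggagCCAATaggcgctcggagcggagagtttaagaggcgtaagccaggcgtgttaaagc
HMMR: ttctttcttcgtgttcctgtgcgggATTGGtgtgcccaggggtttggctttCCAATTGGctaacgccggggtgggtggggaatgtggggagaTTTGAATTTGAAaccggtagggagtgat
PRC1: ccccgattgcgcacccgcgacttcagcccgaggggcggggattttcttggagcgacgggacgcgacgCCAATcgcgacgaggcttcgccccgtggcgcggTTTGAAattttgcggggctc
CENPU: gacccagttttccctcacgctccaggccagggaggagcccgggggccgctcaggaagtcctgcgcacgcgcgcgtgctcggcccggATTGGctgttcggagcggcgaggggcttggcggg

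In windows from 250 bases before to 50 bases after the start, the promoter table used here, taken from RefSeq, had an entry for 34 of the 40 members, with 43 windows in all. AURKA, BIRC5, BUB3, TPX2, TTK and UBE2C were not in that table. CHR letters were present in 65.1% of the member windows, against 11.9% of the 13706 windows of genes in the count table. CCAAT was present in 76.7% of member windows against 34.8%, and both were present in 58.1% against 4.79%. Counted by gene, 25 of the 34 members held CHR letters, 29 held CCAAT, 23 held both, and CENPE, CKAP2 and KIF2C held neither. Among the 6 shown, PLK1, CDC20, HMMR and PRC1 held both sets of letters in the bases printed, and CCNB1 and CENPU held only CCAAT there. A match of letters describes the window and is no evidence of a bound factor.

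Counts assigned to genes ranged from 439261 to 4337368 per library (median 3016290.5), and SIRV spike-in counts from 10950 to 72684. The members together had between 2826 and 45664 counts per library. UBE2C, a ubiquitin-conjugating enzyme, was barely counted (0 to 21 counts per library, median 8), and every other member had a median of at least 105 counts. Levels are given on a spike-in scale and on a TMM scale, both in CPM (counts scaled to a common library size). The first scales each library by its spike-in total and keeps a loss shared by all genes. The second scales by the trimmed mean of gene ratios and gives a gene relative to other transcripts. Genes were compared with the DMSO libraries of the same line by edgeR's quasi-likelihood test with Benjamini-Hochberg adjustment over all genes tested, and a gene was called higher or lower at an adjusted p under 0.05. Log2 changes are given with their standard errors. Both scales are needed because endogenous counts per spike-in count stood at 19.2% of DMSO in the CDK9 line, at 17.6% with THAL-SNS-032, at 11.3% with dBET6 and at 63.2% in the MED14 line, and between 82.3% and 106% in the other 8 comparisons. By a chi-square per degree of freedom between replicates, 6 libraries stood above 3 against both of their replicates, a limit set after the values were seen: MED6 dTAG7 A (18.5 and 14.8 against its replicates, which stood at 2.15 from each other), MED12 DMSO B, MED12 dTAG7 C, MED26 DMSO A, MED31 DMSO A and MED31 dTAG7 A. The next below were THAL-SNS-032 B (2.97 and 4.62, against 1.75 between its replicates) and dBET6 B (2.94 and 5.26, against 2.69). Most counts of members called that rest on the 6 are given with and without them. Single changes, medians, correlations, shares of counts and tallies over lines are given only with them. All 12 blood progenitor and fusion markers listed for KBM7 were in the table, at a summed group mean of 667 to 1813 CPM, although GATA1 was low (1.58 CPM in WT DMSO). Of 12 markers of fibroblasts, epithelium, T cells and B cells, 6 were in the table at a summed group mean of 40.1 to 108 CPM. In WT DMSO they ran from MS4A1 at 0 to CD3D at 11.5 and KRT18 at 24.9 CPM. Single genes of the 2 lists thus overlapped, as CD33 had 26.0 and BCR 8.33 CPM. The 2 sums cover 12 and 6 genes, and MYB (562 CPM) and PTPRC (289 CPM) make up much of the first. The part of the 6 markers in the results was not tested. dTAG7 acts on protein, so the transcript of a tagged gene does not check the labels. Protein levels are not among these data, so the loss of a target by any of the degraders was not measured here.

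Depletion of CDK9 lowered nearly the whole set, as it did nearly all genes. The lowest medians were in the mitotic kinases (-3.91) and in the cyclins, CDK1 and its activators (-3.80). On the spike-in scale 39 of 40 members fell in the CDK9 line with dTAG7, where 95.3% of all genes tested were lower and 0.224% higher. The median change of the members was -3.25 and that of all genes was -2.93. In bulk RNA, fewer cells in G2 or mitosis and less of each transcript per cell cannot be told apart. AURKA, the spindle pole kinase (ENSG00000087586, chr20:56369389-56392337, hg38), stood at 340, 336 and 299 CPM in the DMSO libraries and at 8.12, 12.1 and 16.3 CPM with dTAG7. No treated library came near a control, and the level that remained was 3.75% of DMSO. The change was -4.83 ± 0.17 (adjusted p = 3.99e-34), the lowest of the members. CDC20 (ENSG00000117399, chr1:43358955-43363203) went from 149, 153 and 149 CPM to 4.54, 10.0 and 8.30 CPM, a change of -4.49 ± 0.17 (adjusted p = 5.93e-33). PLK1 (ENSG00000166851, chr16:23677656-23690367) went from 252, 314 and 252 CPM to 13.9, 15.8 and 18.3 CPM, a change of -4.12 ± 0.17. Both genes were separated from their controls in every library. CCNB1 (ENSG00000134057, chr5:69167010-69178245) went from 363, 351 and 350 CPM to 24.2, 22.7 and 27.5 CPM (-3.83 ± 0.11, adjusted p = 7.63e-37), and CDK1, the kinase it activates, from 414, 416 and 375 CPM to 29.0, 26.9 and 32.9 CPM (-3.75 ± 0.20). TOP2A, the topoisomerase that untangles sister chromatids, had 3069, 3128 and 3251 CPM in DMSO and 349, 467 and 375 CPM with dTAG7, a smaller change of -2.99 ± 0.12. UBE2C, the remaining member, had 0.914, 1.52 and 1.78 CPM in DMSO and 0.826, 0.527 and 0 CPM with dTAG7, and did not pass the test (-1.37 ± 0.80, adjusted p = 0.0968).

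Relative to other transcripts more members fell than rose in the CDK9 line. By TMM 21 members fell and 4 rose, against 27.1% of all genes lower and 20.6% higher, with a median of -0.43 for the members and -0.09 for all genes. Of the 7 cyclins, CDK1 and activators 6 fell (median -0.95), and of the 7 kinases 5 fell (median -1.07), among them AURKA (-2.02 ± 0.12, adjusted p = 2.56e-21), PLK1 (-1.30 ± 0.14), AURKB (-1.27) and TTK (-1.07). The 9 chromosome and kinetochore proteins had 3 lower and 2 higher (median -0.15), and the 12 spindle and cytokinesis proteins had 4 lower and 1 higher (median -0.15). CDC20 fell by 1.69 on this scale, CDCA3, which targets mitotic entry inhibitors for degradation, by 1.11, and CCNB1 by 1.00. The 4 members that rose relative to other transcripts were PRC1, BIRC5, MAD2L1 and CENPU, and all 4 fell on the spike-in scale. PRC1 went from 186, 176 and 186 TMM-scaled CPM to 349, 255 and 289 (0.74 ± 0.09, adjusted p = 5.96e-10), while its spike-in scaled level went from 237, 222 and 227 CPM to 56.6, 46.4 and 56.4 CPM (-2.09 ± 0.12). BIRC5 (survivin, a subunit of the chromosomal passenger complex) went from 204, 256 and 230 TMM-scaled CPM to 397, 348 and 325 (0.64 ± 0.09, adjusted p = 7.82e-08). In both genes the groups did not overlap on either scale, and the direction depended on the scale. MAD2L1, the checkpoint protein MAD2 (0.41 ± 0.14, adjusted p = 0.0170), lost its TMM call without DMSO C or dTAG7 A, and CENPU (0.28 ± 0.10, adjusted p = 0.0197) without DMSO B, dTAG7 A or dTAG7 B. TOP2A (-0.19 ± 0.10, adjusted p = 0.108) and HMMR (-0.18 ± 0.10) did not pass the test on the TMM scale. Leaving out each library in turn kept 39 of the 39 spike-in calls and 18 of the 25 TMM calls in every case.

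**Figure D1:**
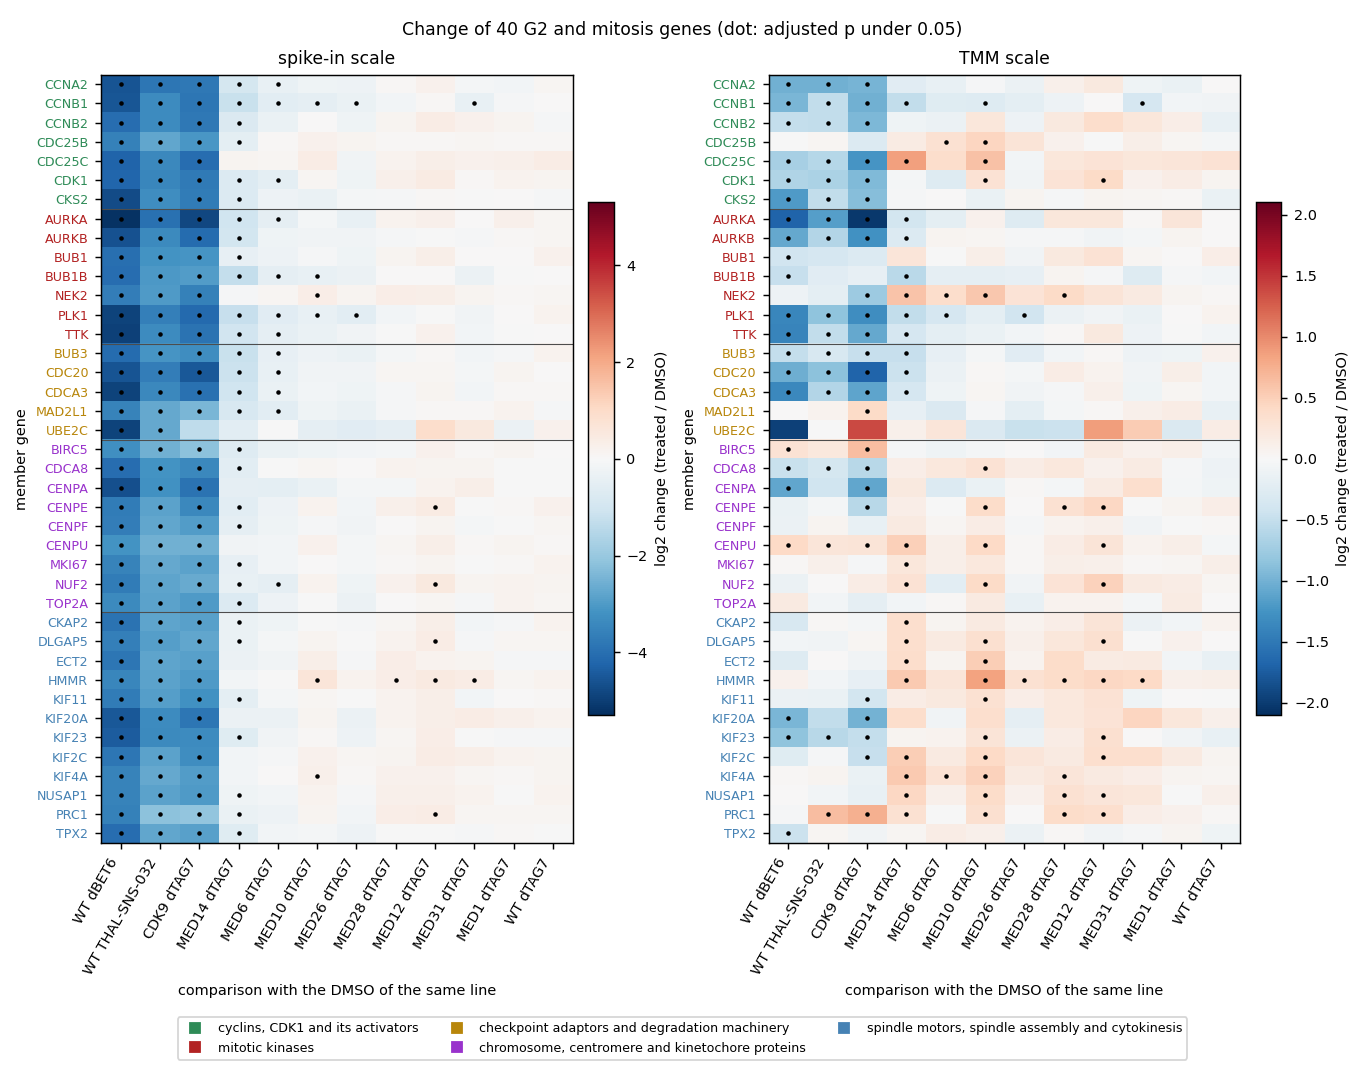
Log2 change of each of the 40 members (rows, coloured by role) in the 12 comparisons with the DMSO of the same line (columns), on the spike-in scale and on the TMM scale, with a dot where the adjusted p was under 0.05. On the spike-in scale the CDK9, dBET6 and THAL-SNS-032 columns are low over nearly the whole set, as were nearly all genes tested. On the TMM scale the MED14 column holds 9 lower and 13 higher members, where 16.6% of all genes were lower and 13.2% higher.

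THAL-SNS-032, given to untagged cells as a degrader of CDK9, lowered all 40 members on the spike-in scale. There 96.2% of all genes were lower and 0.256% higher, so this count sits near the background. The members' median was -2.97 and that of all genes -2.86. AURKA stood at 273, 320 and 277 CPM in WT DMSO and at 22.3, 13.0 and 22.9 CPM with the degrader (-3.94 ± 0.15, adjusted p = 5.04e-32). CCNA2, the cyclin of S phase and G2, went from 199, 222 and 179 CPM to 12.9, 12.7 and 17.7 CPM (-3.81 ± 0.16). CDC20 went from 142, 174 and 148 CPM to 11.4, 9.98 and 15.8 CPM (-3.67 ± 0.15). These 3 genes had the lowest changes, and none had a treated library near its controls. PRC1 kept the most, with 195, 248 and 214 CPM in DMSO and 50.1, 46.3 and 49.9 CPM with the degrader (-2.16 ± 0.12). CENPU followed (157, 175 and 144 CPM against 28.0, 21.6 and 33.8 CPM, -2.53 ± 0.12), and then BIRC5 (-2.56 ± 0.14). Relative to other transcripts, on the TMM scale, 15 members fell and 2 rose, against 16.2% of all genes lower and 13.6% higher, with medians of -0.17 for the members and -0.05 for all genes. Of the cyclins, CDK1 and activators 6 of 7 fell, of the kinases 4 of 7, of the checkpoint and degradation group 3 of 5, and of the 12 spindle proteins 1, KIF23 (-0.58), a motor of the central spindle. AURKA fell by 1.15 on this scale, CCNA2 by 1.01 and CCNB1 by 0.52. PRC1 rose from 153, 172 and 171 TMM-scaled CPM to 252, 299 and 221 (0.65 ± 0.09, adjusted p = 7.43e-08), without overlap. CENPU (0.26 ± 0.10, adjusted p = 0.0461) lost its call when any 1 of its 6 libraries was left out.

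dBET6 gave the lowest levels of the set. All 40 members fell on the spike-in scale, where 97.1% of all genes were lower and 0.423% higher. That count sits near the background, and the medians were -4.00 for the members and -3.67 for all genes. AURKA had 6.24, 5.81 and 11.4 CPM with dBET6, 2.69% of the WT DMSO level (-5.24 ± 0.17, adjusted p = 1.21e-36). TTK, the kinase MPS1 of the spindle checkpoint, went from 78.4, 93.2 and 79.4 CPM to 1.56, 3.27 and 3.10 CPM (-4.94 ± 0.21), and PLK1 from 261, 302 and 256 CPM to 5.35, 8.16 and 13.9 CPM (-4.92 ± 0.18). The 3 kinases were separated from DMSO in every library, although the dBET6 libraries of PLK1 spread over a wider ratio than its controls. CENPU kept the most, with 16.5, 18.3 and 17.8 CPM (-3.17 ± 0.12), followed by BIRC5 with 28.5, 26.1 and 41.8 CPM (-3.26 ± 0.15) and TOP2A (-3.37 ± 0.13). UBE2C had 3.18, 6.66 and 1.53 CPM in DMSO and 0, 0.181 and 0 CPM with dBET6, too few counts for a fold. Against other transcripts (TMM scale) 20 members fell and 2 rose, where 23.6% of all genes were lower and 17.8% higher, with medians of -0.42 and -0.11. The kinases fell in 6 of 7 genes (median -1.07) and the cyclins, CDK1 and activators in 6 of 7 (median -0.70). AURKA fell by 1.69, TTK by 1.39, PLK1 by 1.36 and CDCA3 by 1.35. CENPU (0.41 ± 0.11, adjusted p = 1.27e-03) and BIRC5 (0.30 ± 0.10, adjusted p = 0.0109) rose, the latter not without dBET6 C. PRC1 did not pass the test on this scale (-0.03). The dTAG7, dBET6 and THAL-SNS-032 comparisons in untagged cells share the 3 WT DMSO libraries.

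**Figure D2:**
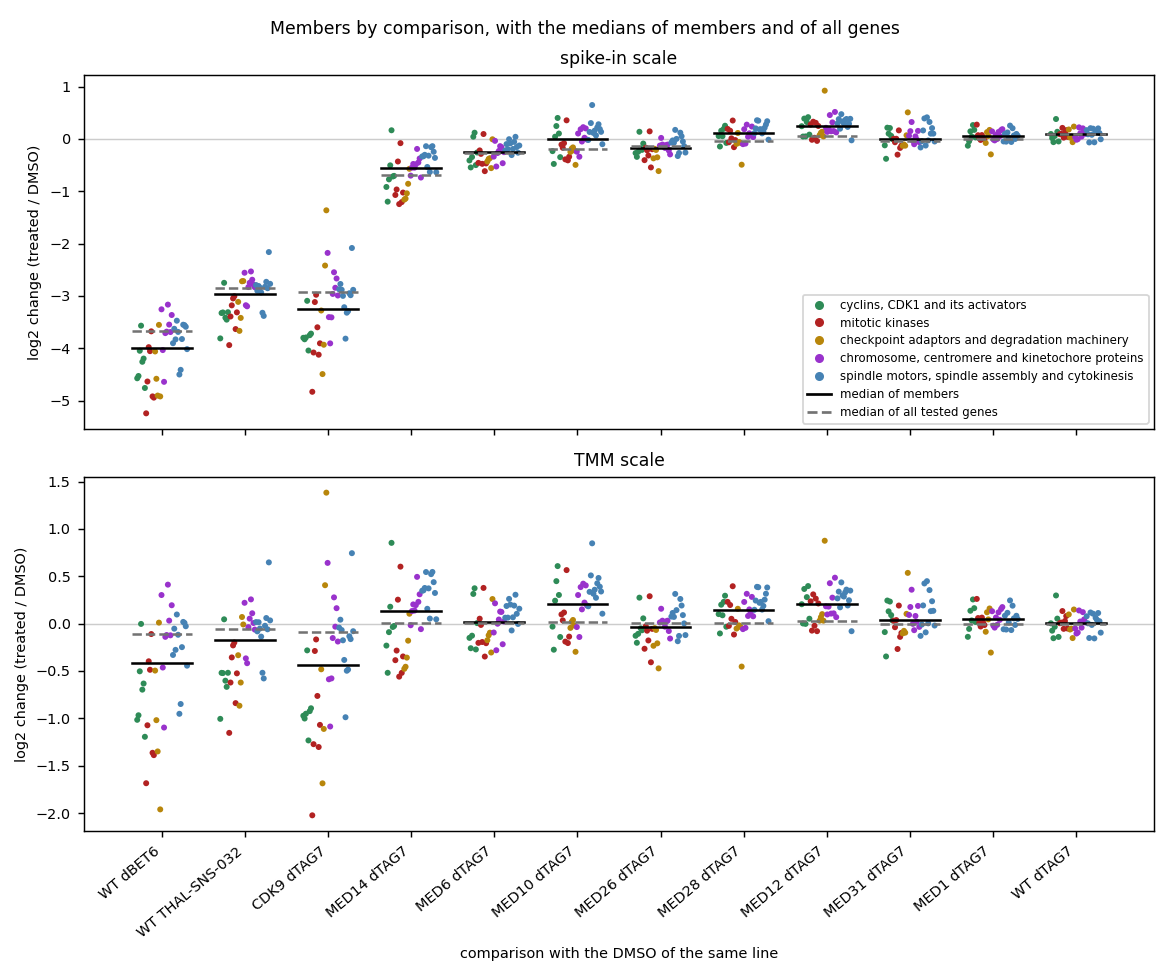
Log2 change of every member (points, coloured by role) in each of the 12 comparisons with own-line DMSO, on the spike-in scale (top) and the TMM scale (bottom), with the median of the members and the median of all genes tested. The member medians of -3.25, -4.00 and -2.97 for CDK9, dBET6 and THAL-SNS-032 lie below the all-gene medians of -2.93, -3.67 and -2.86, and in the MED14 line the member median of -0.55 lies above -0.69.

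The depletions were also compared with each other by direct tests of the difference. Between dTAG7 in the CDK9 line and THAL-SNS-032 in untagged cells, 3 members differed on the spike-in scale, where 2.23% of all genes were lower in the CDK9 line by this test. They were AURKA (a difference of -0.89 ± 0.23, adjusted p = 0.022), AURKB (-0.69 ± 0.19) and CDC20 (-0.83 ± 0.24), each lower in the CDK9 line. By TMM 6 differed, against 3.66% of all genes lower and 1.77% higher. AURKA (-0.87 ± 0.17), AURKB (-0.65), CDC20 (-0.82), CENPE, the kinetochore motor (-0.54), and CCNB1 (-0.48) were lower in the CDK9 line, and BIRC5 (0.42 ± 0.13) was higher. Single libraries decided these counts. The spike-in count of 3 was 0 without CDK9 dTAG7 A, THAL-SNS-032 A or THAL-SNS-032 C, 1 without CDK9 DMSO C or WT DMSO C, 5 without WT DMSO B and 6 without THAL-SNS-032 B. The TMM count of 6 was 1 without CDK9 dTAG7 A and 3 without CDK9 DMSO C or CDK9 dTAG7 B. Over the 40 members the TMM changes of these 2 comparisons, which have separate DMSO libraries, had Pearson's r = 0.865 and Spearman's rho = 0.895, against r = 0.651 over 12973 genes. Members share libraries and depth, so these values describe the genes and test nothing. dBET6 and THAL-SNS-032 were given at different doses, 100 and 250 nM, and a comparison of their libraries is of those treatments as given. Between them 39 members were lower with dBET6 on the spike-in scale, where 53.4% of all genes were, and PRC1 had the difference of -1.43 ± 0.13. The 7 members lower with dBET6 on the TMM scale, against 2.57% of all genes, were TTK (-0.86), CDCA3 (-0.73), PRC1 (-0.67 ± 0.11), AURKA (-0.53), TPX2, an activator of AURKA (-0.48), AURKB (-0.45) and CCNB1 (-0.45). That count was 1 without dBET6 A and 4 without THAL-SNS-032 A, B or C.

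**Figure D3:**
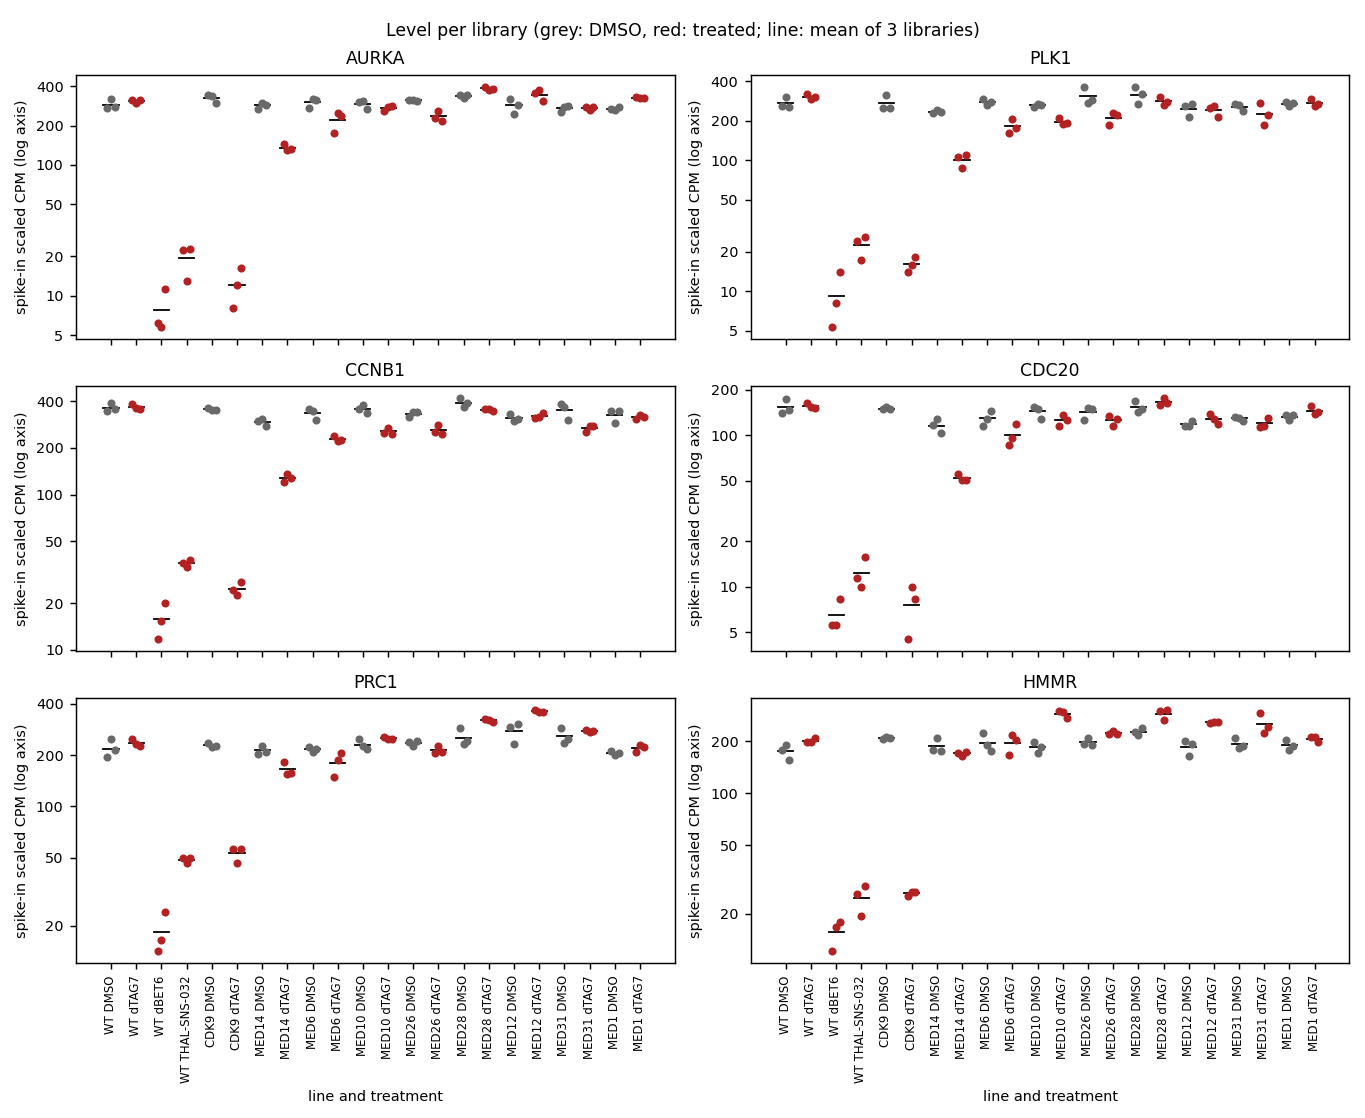
Spike-in scaled CPM (log axis) of 6 members in each of the 66 libraries, by line and treatment, with DMSO in grey, treated libraries in red and a line at the mean of 3. AURKA falls from 340, 336 and 299 CPM to 8.12, 12.1 and 16.3 CPM in the CDK9 line, whereas HMMR in the MED10 line lies above its DMSO libraries.

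Loss of MED14, the Mediator backbone, lowered most members by a smaller amount. On the spike-in scale 30 of 40 fell and none rose, where 63.3% of all genes were lower and 1.7% higher, and the members' median of -0.55 stood above the all-gene median of -0.69. BUB1B, the checkpoint kinase BUBR1 (chr15:40161023-40221136, hg38), had 130, 142 and 133 CPM in DMSO and 59.4, 54.1 and 56.5 CPM with dTAG7 (-1.25 ± 0.13, adjusted p = 5.38e-12). PLK1 went from 228, 241 and 236 CPM to 106, 86.7 and 110 CPM (-1.21 ± 0.14), and CCNB1 from 298, 305 and 278 CPM to 121, 136 and 128 CPM (-1.20 ± 0.10, adjusted p = 4.97e-16). These 3 had the lowest changes, and their groups did not overlap. BUB3, the checkpoint adaptor that carries BUB1 and BUB1B to kinetochores (chr10:123154277-123170467), went from 297, 301 and 303 CPM to 135, 133 and 134 CPM (-1.16 ± 0.16). CDC20 went from 116, 128 and 103 CPM to 55.9, 50.4 and 50.6 CPM (-1.14 ± 0.13) and AURKA from 270, 298 and 290 CPM to 145, 130 and 132 CPM (-1.07 ± 0.13). The kinases (6 of 7 lower, median -1.03) and the checkpoint and degradation group (4 of 5, median -1.04) lay below the spindle and cytokinesis proteins (7 of 12, median -0.33). At the other end, CDC25C, the phosphatase that activates CDK1, had 50.5, 56.9 and 68.4 CPM in DMSO and 64.0, 57.2 and 73.9 CPM with dTAG7 (0.16 ± 0.17, adjusted p = 0.402). NEK2, the kinase that separates centrosomes, had 67.0, 72.6 and 76.9 CPM and 64.7, 69.5 and 70.8 CPM (-0.08 ± 0.12, adjusted p = 0.548), and the groups overlapped in both genes. HMMR had 179, 209 and 177 CPM and 172, 165 and 175 CPM (-0.14 ± 0.11, adjusted p = 0.252). With each library left out in turn, 26 of the 30 calls held throughout.

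Relative to other transcripts the MED14 line had 13 members higher and 9 lower, against 13.2% of all genes higher and 16.6% lower, with a member median of 0.14 and an all-gene median of 0.01. The 9 that fell were BUB1B (-0.56 ± 0.11, adjusted p = 8.36e-05), PLK1 (-0.52 ± 0.11), CCNB1 (-0.52 ± 0.09, adjusted p = 5.08e-06), BUB3 (-0.48), CDC20 (-0.46), AURKA (-0.39), CDCA3 (-0.36), TTK (-0.35) and AURKB (-0.28). They comprise 5 of the 7 kinases, 3 of the 5 genes of the checkpoint and degradation group, and 1 cyclin. The 13 that rose included 8 of the 12 spindle and cytokinesis proteins and 3 of the 9 chromosome and kinetochore proteins. Of these 13 members, 6 were called lower on the spike-in scale. CDC25C rose the most, from 46.0, 48.2 and 59.5 TMM-scaled CPM to 91.1, 79.7 and 103 (0.85 ± 0.15, adjusted p = 1.11e-05). NEK2 went from 61.1, 61.5 and 66.9 to 92.2, 96.9 and 98.8 (0.60 ± 0.11). KIF4A, a chromosome-bound kinesin, went from 269, 261 and 236 to 397, 327 and 389 (0.55 ± 0.08, adjusted p = 6.52e-08). In these 3 genes every treated library lay above every control on the TMM scale, and none of them passed the test on the spike-in scale. HMMR (0.54 ± 0.08, adjusted p = 5.63e-07), KIF2C, a microtubule depolymerase (0.52), CENPU (0.49) and NUSAP1, a microtubule bundler (0.44), followed. Leaving out dTAG7 A lowered the TMM count from 22 to 13, and 13 of the 22 calls held with each library left out in turn. Tested against the dTAG7 effect in untagged cells, 31 members were lower in the MED14 line on the spike-in scale, where 57.1% of all genes were lower and 0.623% higher by this test, with CCNB1 at -1.21 ± 0.13 and PLK1 at -1.37 ± 0.20. On the TMM scale 12 differed, against 10.3% of all genes lower and 6.07% higher. PLK1 (-0.60), BUB3 (-0.57), BUB1B (-0.50), CCNB1 (-0.45), AURKA (-0.39) and CDC20 (-0.39) were lower in the MED14 line, and NEK2 (0.57), CENPU (0.54), KIF4A (0.51), KIF2C (0.46), HMMR (0.43) and NUSAP1 (0.33) were higher.

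In the MED10 line the members' median was 0.00 on the spike-in scale, where the median of all genes was -0.19. Of the 40 members 3 rose and 3 fell, against 2.71% of all genes higher and 19% lower. HMMR (ENSG00000072571, chr5:163460203-163491945) went from 198, 172 and 187 CPM to 300, 296 and 275 CPM (0.65 ± 0.11, adjusted p = 5.51e-06). NEK2 went from 82.6, 78.5 and 61.6 CPM to 90.7, 94.1 and 97.7 CPM (0.35 ± 0.12, adjusted p = 0.0226), and KIF4A from 380, 338 and 330 CPM to 420, 431 and 419 CPM (0.28 ± 0.10, adjusted p = 0.0379). All 3 lay above every DMSO library, HMMR by the widest margin. CCNB1 went the other way, from 358, 376 and 336 CPM to 251, 270 and 247 CPM (-0.48 ± 0.10, adjusted p = 1.07e-04), as did PLK1, from 255, 268 and 265 CPM to 211, 189 and 193 CPM (-0.41 ± 0.14, adjusted p = 0.0242), and BUB1B, from 152, 138 and 156 CPM to 110, 118 and 113 CPM (-0.39 ± 0.13, adjusted p = 0.0210). By TMM 17 members rose and 1 fell, against 8.02% higher and 9.9% lower among all genes, with a member median of 0.21 and an all-gene median of 0.02. The 17 included 9 of the 12 spindle and cytokinesis proteins (median 0.35) and 4 of the 9 chromosome and kinetochore proteins (median 0.22), with HMMR at 0.85 ± 0.08 (adjusted p = 6.75e-12), CDC25C at 0.61 ± 0.16 and NEK2 at 0.57. CCNB1 was the member that fell (-0.28 ± 0.09, adjusted p = 0.0191). PLK1 and BUB1B did not pass the test on this scale (-0.21 and -0.19). The spike-in count of 6 was 3 without DMSO C and 2 without dTAG7 C.

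In the MED6 line 12 members fell on the spike-in scale and none rose, against 18.4% of all genes lower and 0.775% higher, and the medians of members and of all genes were -0.26 and -0.27. PLK1 went from 292, 267 and 277 CPM to 161, 207 and 177 CPM (-0.62 ± 0.14, adjusted p = 1.18e-03). CCNB1 went from 355, 343 and 303 CPM to 238, 221 and 226 CPM (-0.55 ± 0.10, adjusted p = 4.26e-05). In these genes the groups did not overlap. MAD2L1 had 91.6, 98.6 and 93.6 CPM in DMSO and 45.9, 76.4 and 72.2 CPM with dTAG7 (-0.56 ± 0.17), and CDK1 had 366, 372 and 396 CPM and 147, 337 and 322 CPM (-0.50 ± 0.17, adjusted p = 0.0286). BUB3 had 344, 334 and 309 CPM and 189, 283 and 261 CPM (-0.43, adjusted p = 0.038). In all 3 genes dTAG7 A, the library set apart, was the lowest. Without it the count was 3 in place of 12, and it was 7 without DMSO B and 5 without DMSO C. PLK1 also fell on the TMM scale (-0.35 ± 0.11, adjusted p = 0.0363) and 3 members rose, against 3.64% of all genes lower and 2.8% higher, with a member median of 0.01. Those 3 were NEK2 (0.38 ± 0.12), KIF4A (0.31 ± 0.08) and CDC25B, another CDK1-activating phosphatase (0.31). KIF4A had 223, 244 and 224 TMM-scaled CPM in DMSO and 293, 289 and 272 with dTAG7. Without dTAG7 A, the library set apart, the TMM calls were 2 lower and 1 higher. The TMM count of 4 was 2 without DMSO A and 1 without DMSO B or DMSO C, and none of these calls was made in all 6 cases of leaving a library out.

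In the MED12 line, which loses a subunit of the Mediator kinase module, members were called higher and none lower. By spike-ins 5 members rose and none fell, against 1.57% of all genes higher and 3.4% lower, with medians of 0.24 for members and 0.06 for all genes. NUF2, a subunit of the NDC80 kinetochore complex, went from 195, 134 and 181 CPM to 249, 242 and 237 CPM (0.51 ± 0.14, adjusted p = 0.0146). HMMR went from 201, 164 and 193 CPM to 255, 259 and 261 CPM (0.47 ± 0.11, adjusted p = 3.28e-03). CENPE went from 323, 223 and 285 CPM to 373, 374 and 392 CPM (0.46 ± 0.13, adjusted p = 0.0216). In all 3 genes the treated libraries lay above the controls, and DMSO B, one of the libraries set apart, was the lowest control. DLGAP5, a spindle assembly factor (0.38 ± 0.11, adjusted p = 0.0272), and PRC1 (292, 233 and 306 CPM against 366, 358 and 359 CPM, 0.38 ± 0.11, adjusted p = 0.0210) also rose. Without DMSO B 1 member was called, without dTAG7 A or dTAG7 C 2, and without DMSO A 9, while a fit to the 6 libraries of this line alone called 0. HMMR was called in all 6 cases. By TMM 10 rose and none fell, against 3.06% higher and 5.61% lower among all genes, with medians of 0.21 and 0.03. They were NUF2 (0.49 ± 0.10), HMMR (0.44 ± 0.08), CENPE (0.43), CDK1 (0.40), KIF2C (0.36), PRC1 (0.35 ± 0.08), DLGAP5 (0.34), KIF23 (0.33), CENPU (0.27) and NUSAP1 (0.25). The count was 5 without dTAG7 A or dTAG7 C, 6 without dTAG7 B and 1 in a fit to this line alone. CCNB1 (0.04) and PLK1 (-0.04) did not pass the spike-in test in this line. Against dTAG7 in untagged cells, the effect in the MED12 line differed for no member on the spike-in scale (0.024% of all genes higher and 1.62% lower by edgeR, 1 member at an unadjusted p under 0.05, 0 by DESeq2 and 0 by limma). It differed on the TMM scale for KIF23 (0.49 ± 0.13, adjusted p = 0.020), where 0.385% of all genes were higher and 2.2% lower. That call was lost without MED12 DMSO B or MED12 dTAG7 C, both set apart, without MED12 dTAG7 A, WT DMSO C, WT dTAG7 B or WT dTAG7 C, and in a fit to these libraries alone, and 2 members were called without WT dTAG7 A. KIF23 had 92.3, 83.5 and 90.0 TMM-scaled CPM in MED12 DMSO and 117, 105 and 114 with dTAG7, and 106, 109 and 111 against 107, 94.9 and 90.3 in untagged cells.

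In the MED28 line HMMR alone was called on the spike-in scale, at 226, 218 and 241 CPM in DMSO and 302, 267 and 303 CPM with dTAG7 (0.35 ± 0.11, adjusted p = 0.0430), where 0.775% of all genes were higher and 4.07% lower. That call was lost without DMSO B, DMSO C, dTAG7 A or dTAG7 C. The members' median was 0.11 against -0.04 for all genes. By TMM 6 members rose and none fell, against 2.03% and 4.36% of all genes. They were NEK2 (0.40), HMMR (0.38 ± 0.08, adjusted p = 1.15e-03), PRC1 (0.38), NUSAP1 (0.32), CENPE (0.31) and KIF4A (0.25), 4 of them spindle proteins. PRC1 had 174, 156 and 161 TMM-scaled CPM in DMSO and 212, 217 and 211 with dTAG7, without overlap. The count was 3 without DMSO B or dTAG7 C. For no member did the effects in the MED12 and MED28 lines differ on either scale (0.00799% of all genes on the spike-in scale and 0.0154% on the TMM scale by edgeR, no member at an unadjusted p under 0.05, and 0 by DESeq2 on both scales), and such a result does not show that the effects are equal.

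In the MED31 line HMMR rose and CCNB1 fell, and no other member was called on either scale. HMMR went from 209, 183 and 189 CPM to 294, 225 and 243 CPM (0.39 ± 0.11, adjusted p = 0.0261), and CCNB1 from 385, 364 and 302 CPM to 254, 276 and 276 CPM (-0.38 ± 0.09, adjusted p = 0.0114), where 0.495% of all genes were higher and 2.61% lower. The groups did not overlap in either gene. The values on the TMM scale were 0.42 ± 0.08 (adjusted p = 7.08e-04) and -0.35 ± 0.09 (adjusted p = 9.87e-03), where 1.43% of all genes were higher and 3.04% lower. The spike-in count of 2 was 1 without DMSO A, the library set apart, or DMSO C, and 0 without DMSO B or dTAG7 A, the other library set apart. The TMM count of 2 was 1 without DMSO A, DMSO B or dTAG7 A. In the MED26 line PLK1 went from 366, 273 and 290 CPM to 185, 230 and 221 CPM (-0.55 ± 0.14, adjusted p = 0.0124) and CCNB1 from 314, 340 and 338 CPM to 253, 282 and 247 CPM (-0.34 ± 0.09, adjusted p = 0.0270), where 2.88% of all genes were lower and 0.264% higher. In PLK1 the highest control was DMSO A, the library set apart, and the lowest treated library was dTAG7 A. PLK1 also fell on the TMM scale (-0.41 ± 0.11, adjusted p = 0.0199) and HMMR rose (0.31 ± 0.08, adjusted p = 0.0268), from 153, 159 and 148 TMM-scaled CPM to 191, 193 and 188, where 1.4% of all genes were lower and 0.933% higher. The spike-in count of 2 was 0 without dTAG7 A and 1 without DMSO A, B or C or dTAG7 C, and the TMM count of 2 was 0 without DMSO A or dTAG7 A and 1 without DMSO C, dTAG7 B or dTAG7 C.

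dTAG7 called no member in untagged cells or in the MED1 line on either scale by edgeR, where 0% of all genes were called on the spike-in scale in both, and on the TMM scale 0% in untagged cells and, in the MED1 line, 0.00771% lower and 0% higher. In the MED1 line 1 member had an unadjusted p under 0.05 on each scale, and in untagged cells 2 had one on the spike-in scale and none on the TMM scale. DESeq2 called 0 on both scales and limma 0 on the spike-in scale. Fitted to the libraries of the MED1 line alone, edgeR called 1 member higher on the TMM scale. AURKA in the MED1 line had 270, 261 and 276 CPM in DMSO and 329, 323 and 323 CPM with dTAG7 (0.27 ± 0.13, adjusted p = 1), and CDC25C in untagged cells had 56.1, 66.6 and 50.4 CPM and 63.2, 90.9 and 69.3 CPM (0.38 ± 0.17, adjusted p = 0.992). The groups overlapped for CDC25C and did not for AURKA, yet neither difference passed the test. Against the effect in untagged cells, that in the CDK9 line was lower for 39 members on the spike-in scale, where 93.9% of all genes were lower. By TMM 19 members were lower and 3 higher in this test, against 23.3% and 15.3% of all genes. The differences were -2.03 ± 0.15 for AURKA, -1.62 ± 0.18 for CDC20 and -1.38 ± 0.18 for PLK1, and 0.72 ± 0.12 for PRC1 and 0.69 ± 0.13 for BIRC5.

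Across the 8 Mediator lines, each with its own DMSO libraries, HMMR was the member called higher in the most lines and CCNB1 and PLK1 were those called lower in the most. On the TMM scale HMMR was higher in 6 lines and lower in none, with changes from 0.11 to 0.85. NEK2, KIF4A, NUSAP1 and PRC1 were higher in 4 lines each, and CENPE, CENPU, NUF2, KIF2C and DLGAP5 in 3 each. CCNB1 (from -0.52 to 0.00) and PLK1 (from -0.52 to 0.01) were lower in 3 lines each and higher in none. The 9 members lower in at least 1 Mediator line and the 19 higher in at least 1 were separate genes, and 12 were called in none. Of all genes 20.3% were lower in at least 1 of these lines, 18.1% higher, 0.247% both and 61.8% neither. The lack of overlap among the members thus sits near the background. CCNA2, CCNB2, CKS2, BUB1, MAD2L1, UBE2C, CENPA, CENPF, BIRC5, TOP2A, KIF20A and TPX2 are those 12. On the spike-in scale CCNB1 was lower in 5 lines and PLK1 in 4, HMMR was higher in 4, and 4 members (NUF2, CENPE, PRC1 and DLGAP5) were lower in 1 or more lines and higher in another. These tallies take in calls that are lost when 1 library is left out. With each library left out in turn, 0 of 2 spike-in calls held throughout in the MED26 line, 0 of 1 in the MED28 line and 0 of 2 in the MED31 line. On the TMM scale 0 of 4 held in the MED6 line and 0 of 2 in the MED26 line. By spike-ins 64.5% of all genes were lower in at least 1 line, 5.27% higher and 0.863% both, and the members' counts were 30, 7 and 4. Whether an effect differed among the 8 lines was tested gene by gene with an F test. It did on the spike-in scale for 31 members, where 46.2% of all genes did, with adjusted p = 8.3e-10 for CCNB1 and 2.3e-08 for AURKA. It did on the TMM scale for 11 members, against 12.4% of all genes, namely AURKA (adjusted p = 1.4e-05), HMMR (adjusted p = 3.1e-04), NUF2, KIF4A, CDK1, NUSAP1, PRC1, CENPE, CENPU, CCNB1 and CDC20. That TMM count of 11 was 8 without MED14 DMSO A and 14 without MED31 dTAG7 A, a library set apart. Over the 40 members the TMM changes in the MED14 line had Pearson's r = 0.790 with those in the MED10 line (0.583 over 12973 genes) and 0.722 with those in the MED6 line (0.453). The value for the MED6 line is given only with its dTAG7 A, a library set apart. With the CDK9 line r was 0.371 (0.281 over all genes). These values describe 40 genes that share libraries and depth, and UBE2C, with few counts, moves them.

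**Figure D4:**
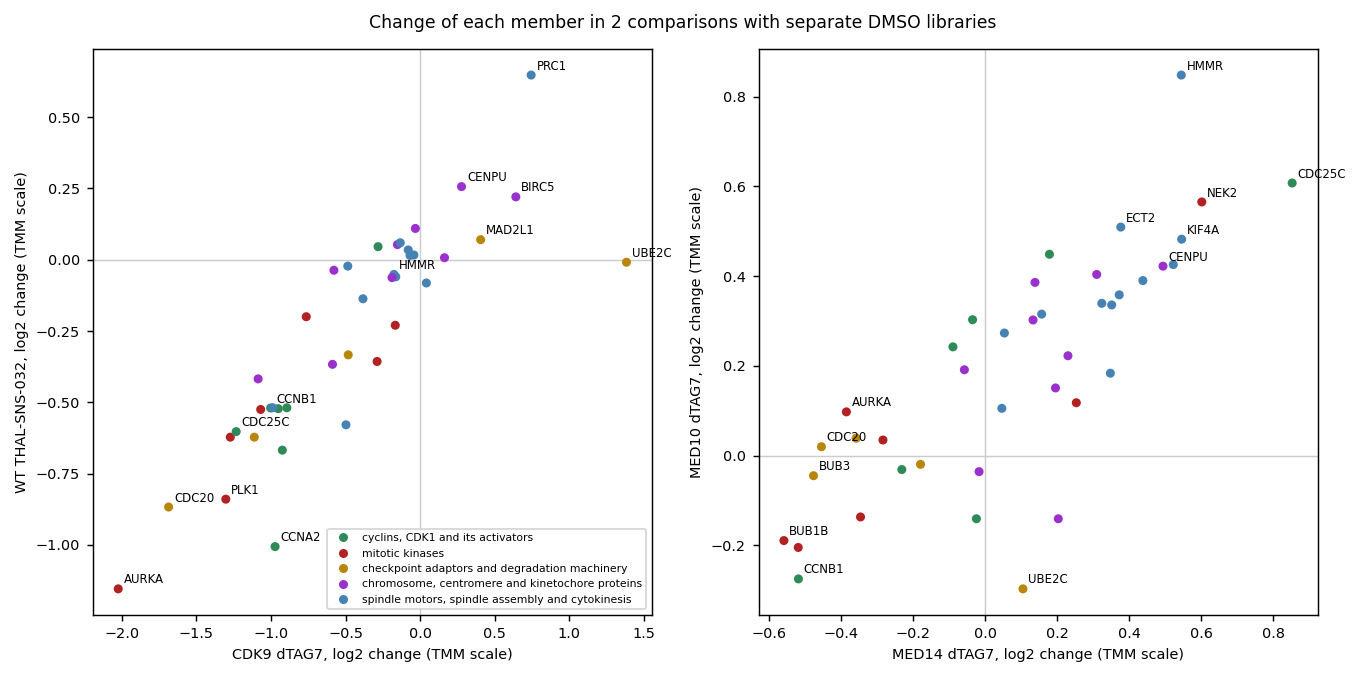
TMM-scale log2 change of each of the 40 members (points, coloured by role) in pairs of comparisons that have separate DMSO libraries. For CDK9 against THAL-SNS-032, AURKA lies at the lower left (-2.02 and -1.15) and PRC1 at the upper right (0.74 and 0.65), with the thinly counted UBE2C far to the right. For MED14 against MED10, CCNB1 (-0.52 and -0.28) and HMMR (0.54 and 0.85) lie in opposite corners.

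The share of all gene counts that the 40 members held sums the same data to 1 value per library. Members with many counts weigh the most in this sum. TOP2A had 7752 of the 29664 member counts in WT DMSO A and 1234 of the 3343 in dBET6 A. In WT DMSO the share was 0.913% ± 0.0309 (SD, n = 3), with dTAG7 0.922% ± 0.0145, with THAL-SNS-032 0.677% ± 0.0366 and with dBET6 0.592% ± 0.0618. In the CDK9 line it went from 1.00% ± 0.0144 to 0.606% ± 0.0321. In the MED14 line the shares were 0.915% ± 0.00941 and 0.932% ± 0.0188. In the MED10 line they were 0.896% ± 0.00806 and 1.03% ± 0.0207, in the MED12 line 0.964% ± 0.0167 and 1.09% ± 0.0327, and in the MED28 line 0.912% ± 0.0133 and 1.02% ± 0.0157. They were 0.872% ± 0.00174 and 0.923% ± 0.0176 in the MED1 line, 0.899% ± 0.0152 and 0.914% ± 0.0364 in the MED6 line, 0.841% ± 0.0214 and 0.871% ± 0.0374 in the MED31 line, and 0.969% ± 0.0367 and 0.930% ± 0.0309 in the MED26 line, where the treated mean was the lower. These shares were not tested.

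**Figure D5:**
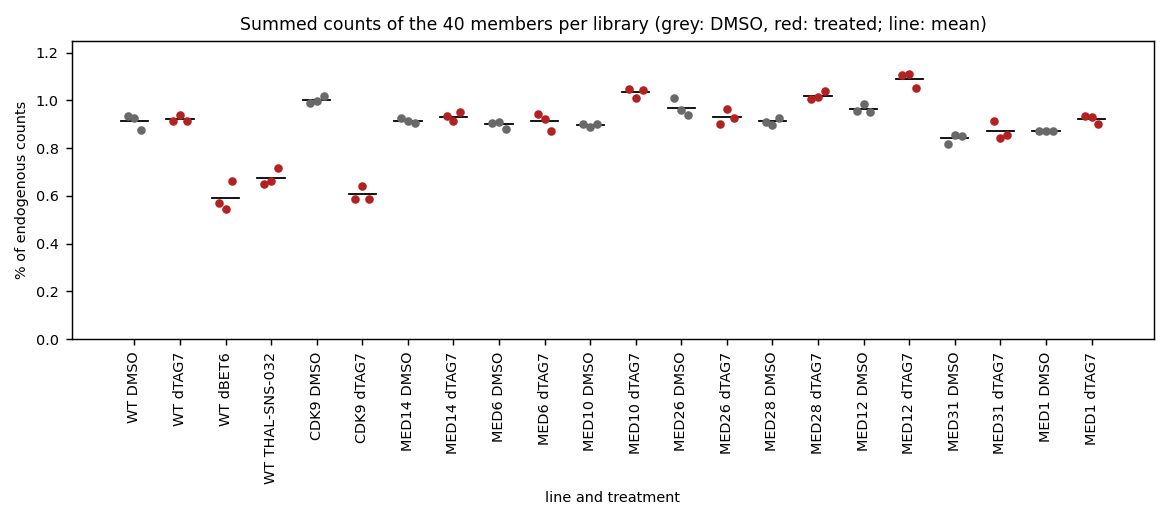
Summed counts of the 40 members as a percentage of all endogenous counts, for each of the 66 libraries by line and treatment, with DMSO in grey, treated libraries in red and a line at the mean of 3. The CDK9 line drops from a mean of 1.00% to 0.606% and dBET6 stands at 0.592%, while the MED10 line goes from 0.896% to 1.03%.

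The DMSO libraries show how far the lines differed before any depletion. The level of 15 members differed among the 10 lines on the spike-in scale, where 40.7% of all genes did, and that of 13 on the TMM scale, where 26.6% did. MKI67, the proliferation antigen Ki-67 that coats mitotic chromosomes, had the lowest spike-in scaled level in the MED14 line (501, 514 and 495 CPM) and the highest in the MED28 line (792, 768 and 757 CPM, adjusted p = 9.1e-05). That scale keeps a shift shared by all genes. On the TMM scale MKI67 had 457, 435 and 431 CPM in the MED14 line and 479, 517 and 507 CPM in the MED28 line. The CDK9 line, at 543, 533 and 574 CPM, stood above the MED28 line there. PRC1 differed on the TMM scale (adjusted p = 1.3e-04), from 151, 154 and 158 in the MED1 line to 206, 211 and 227 in the MED12 line. The spike-in count of 15 was 9 without MED14 DMSO C and 18 without MED12 DMSO B, a library set apart.

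The regulators of the set were read from a separate list of 23 genes (E2F and DREAM subunits, MYBL2, FOXM1 and their partners), of which 22 were in the table. By spike-ins 21 of 22 fell in the CDK9 line, 22 with THAL-SNS-032, 22 with dBET6 and 14 in the MED14 line, where 2 rose. The shares of all genes lower in these comparisons were 95.3%, 96.2%, 97.1% and 63.3%, so the first 3 counts sit at the background. By TMM 10 fell and 5 rose in the CDK9 line, where 27.1% of all genes were lower and 20.6% higher. The counts were 6 and 6 with THAL-SNS-032 (16.2% and 13.6% of all genes), 11 and 4 with dBET6 (23.6% and 17.8%), and 6 and 7 in the MED14 line (16.6% and 13.2%). FOXM1, the forkhead activator of G2 genes, went from 69.4, 71.5 and 69.0 spike-in scaled CPM to 4.27, 4.75 and 3.65 CPM in the CDK9 line (-4.05 ± 0.23). Its change was -4.33 ± 0.23 with dBET6, -2.85 ± 0.20 with THAL-SNS-032, -0.73 ± 0.17 in the MED14 line and -0.47 ± 0.16 in the MED6 line. FOXM1 fell on the TMM scale in the CDK9 line (-1.22 ± 0.21) and with dBET6 (-0.78 ± 0.23), and it did not pass the test with THAL-SNS-032 (-0.05) or in the MED14 line (-0.04). MYBL2, the MYB factor that joins MuvB, changed by -2.04 ± 0.11 in the CDK9 line and -2.42 with THAL-SNS-032 on the spike-in scale, and rose on the TMM scale by 0.77 ± 0.14 and 0.39 ± 0.14. LIN54, the MuvB subunit that contacts the CHR, had spike-in changes of -4.29 in the CDK9 line, -3.20 with THAL-SNS-032 and -4.29 with dBET6, and a TMM change of 0.67 in the MED14 line. E2F8, a repressor of the E2F family, fell by 4.13 in the CDK9 line on the spike-in scale and rose in the MED31 line (0.68 ± 0.20). CDKN1A, the CDK inhibitor p21, is not among the 22 and was read beside them. It rose on the spike-in scale in the CDK9 line, from 12.8, 22.3 and 16.7 CPM to 24.5, 36.4 and 25.9 CPM (0.65 ± 0.22), and in the MED10 line, from 14.9, 12.2 and 12.2 CPM to 28.4, 19.2 and 27.8 CPM (0.98 ± 0.23). Every treated library exceeded every control in both lines. Its TMM change was 3.46 in the CDK9 line, 3.43 with dBET6, 3.17 with THAL-SNS-032, 1.20 in the MED10 line and 1.07 in the MED14 line.

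Other genes of mitosis came from a list of 69, of which 66 were in the table. On the TMM scale 30 fell and 10 rose in the CDK9 line (median -0.37, against -0.09 for all genes, of which 27.1% were lower and 20.6% higher). The counts were 30 and 9 with dBET6 (23.6% and 17.8% of all genes) and 20 and 6 with THAL-SNS-032 (16.2% and 13.6%). In the MED14 line 22 rose and 5 fell (median 0.17, against 0.01 for all genes, of which 13.2% were higher and 16.6% lower). In the MED10 line 23 rose and 1 fell (8.02% and 9.9% of all genes), in the MED12 line 18 and 0 (3.06% and 5.61%), and in the MED28 line 14 and 0 (2.03% and 4.36%). At the ends of the list in the CDK9 line stood CDC25A, the CDK-activating phosphatase of the G1/S step (-2.49 ± 0.22), FZR1, the second activator of the anaphase-promoting complex (-2.33 ± 0.23), and INCENP, the scaffold of the chromosomal passenger complex (1.21 ± 0.19). In the MED14 line they were NCAPH, a condensin subunit (-1.25 ± 0.14), ZWILCH, a kinetochore protein (-0.91 ± 0.10), MASTL, the kinase that restrains PP2A in mitosis (1.15 ± 0.19), and KIF18A, a kinesin of chromosome congression (1.05 ± 0.15). MASTL also led the list in the MED12 line (0.87 ± 0.19). The 44 genes of S phase, all in the table, gave 13 lower and 9 higher in the CDK9 line, near the background of 27.1% and 20.6%, with the same median of -0.09 as all genes. There were 16 and 9 with dBET6 (23.6% and 17.8% of all genes), 9 and 7 with THAL-SNS-032 (16.2% and 13.6%), and 8 and 11 in the MED14 line (16.6% and 13.2%). CCNE2, the cyclin E2 of S phase entry, rose by 1.52 ± 0.16 in the MED14 line, 0.83 in the MED28 line and 0.63 in the MED12 line.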

How the data were processed

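3' mRNA libraries (QuantSeq, 350 ng RNA, single reads of 50 bases) were made from 66 wells of KBM7 cells lysed with equal SIRV spike-ins, per the labels' protocols. The submitters' processing notes name hg38, STAR 2.5.2b, HTSeq 0.6.0 and bedtools 2.26.0, with no settings. The authors deposited raw counts per gene (13331 genes and 44 spike-in entries), which carry the results, and a loess-normalized table of non-negative signal, whose making is not given in the sources used here and which served 1 alternative. Symbols came from GENCODE 29 (13297 genes).

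Counts were fitted in edgeR 4.0.16 (R 4.3.3) on 22 group means over 66 libraries (44 residual degrees of freedom), after filterByExpr. Library sizes were the spike-in totals (spike-in scale, 12515 genes tested) or TMM-scaled endogenous totals (12973). Standard errors were taken as the size of a log2 change over the root of its F. Differences between lines were contrasts in the same fit. Alternatives, whose effect is given at the end, were no filter, a replicate block, the libraries of the comparison alone, DESeq2 1.42.0, limma 3.58.1 on log2(signal + 1) and each library left out in turn. Counts per library limit precision most in the CDK9, dBET6 and THAL-SNS-032 libraries.

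The members and lists were chosen with earlier results of these data known. Named genes are 8 fixed members (CCNB1, PLK1, AURKA, CDC20, CDK1, TOP2A, HMMR, BUB3) where a result turns on them, the 3 members with the lowest and the 3 with the highest change (mean of at least 5 CPM), up to 10 more at each end by value, and at most 2 called genes at each end of other lists. Promoters came from RefSeq (GRCh38.p14).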

Additional observations from a re-analysis of the deposited data

Results flagged for a closer look

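The effect of a depletion on the members differed between lines by a direct test in 9 cases. Against dTAG7 in untagged cells, the effect in the CDK9 line differed for 39 members on the spike-in scale, all lower, where 93.9% of all genes were lower, and for 22 on the TMM scale, where 23.3% of all genes were lower and 15.3% higher. AURKA and CDC20 were among the lowest in both. Against the same untagged comparison, the effect in the MED14 line differed for 31 members on the spike-in scale (57.1% of all genes lower) and 12 on the TMM scale (10.3% lower and 6.07% higher), where PLK1 and BUB3 were lower and NEK2 and CENPU higher. The effect in the MED12 line differed from that in untagged cells for 1 member, KIF23, on the TMM scale (0.385% of all genes higher and 2.2% lower), and that call was lost without any 1 of MED12 DMSO B, MED12 dTAG7 A, MED12 dTAG7 C, WT DMSO C, WT dTAG7 B and WT dTAG7 C. The effects of dTAG7 in the CDK9 line and of THAL-SNS-032 in untagged cells differed for 3 members on the spike-in scale, AURKA, AURKB and CDC20 (2.23% of all genes lower and 0.416% higher). They differed for 6 on the TMM scale (3.66% lower and 1.77% higher), and these counts moved with single libraries. Among the 8 Mediator lines the effect differed for 31 members on the spike-in scale, where it did for 46.2% of all genes, and for 11 on the TMM scale, where it did for 12.4%.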

How the results depend on the processing

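Within 1 comparison and 1 scale, no member called in 1 direction was called in the other under the settings run. Between the scales the call could reverse. Members lower by spike-ins and higher by TMM numbered 4 in the CDK9 line and 6 in the MED14 line. There were 2 with dBET6 and 2 with THAL-SNS-032. Uncalled changes can still change sign. In the MED6 line CCNB2 had 123, 136 and 124 TMM-scaled CPM in DMSO and 58.9, 158 and 136 with dTAG7. Its uncalled change of -0.127 rests on dTAG7 A, the library set apart. Over the settings other than leaving out 1 library, 4615 of 4778 values stayed on their side of the threshold, 91 lost and 72 gained a call. With 1 library left out 5482 of 5760 stayed, and the rest lost or gained a call. Fewer libraries enter the fits that leave some out, and for the other shifts below the cause was not tested.

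Among 200 counts of members recomputed under those settings, 169 stayed within 1.5 times and 31 moved. With the libraries of the comparison alone, the spike-in counts were 0 in place of 12 for MED6, 14 for 6 in MED10, 0 for 5 in MED12, 6 for 2 in MED26, 6 for 1 in MED28 and 0 for 3 between the CDK9 line and THAL-SNS-032. The TMM counts were 1 for 0 in MED1, 0 for 4 in MED6, 1 for 10 in MED12, 1 for 2 in MED26, 11 for 6 in MED28, 0 for 1 between MED12 and untagged cells, 2 for 6 for THAL-SNS-032 against the CDK9 line, and 0 for 7 between dBET6 and THAL-SNS-032. DESeq2 with spike-in size factors gave 8 in MED12, 4 in MED26 and 3 in MED28, and with median-of-ratios factors it gave 7 in MED6, 4 in MED26, 4 in MED31, 3 between MED12 and untagged cells and 3 between dBET6 and THAL-SNS-032. edgeR with median-of-ratios factors gave 3 for that last test. limma on the loess values gave 4 in MED6, 3 in MED10, 2 in MED12, 0 in MED26, MED28 and MED31, and a count of 6 between the CDK9 line and THAL-SNS-032.

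The letters A, B and C did not pair the wells: the correlations of their deviations ran from -0.217 to 0.0604 over 36 pairs, with a median of -0.00783. With the replicate block the MED28 spike-in count was 0 in place of 1, and every other count stayed within 1.5 times (16 for 18 in MED10 on the TMM scale).

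Leaving out 1 library in turn gave these lowest and highest counts on the spike-in scale: 3 to 15 in MED6, 2 to 5 in MED10, 1 to 9 in MED12, 0 to 2 in MED26, 0 to 1 in MED28, 0 to 2 in MED31, 0 to 6 for THAL-SNS-032 against the CDK9 line, and 9 to 18 for DMSO levels among lines. On the TMM scale the ranges were 1 to 5 in MED6, 5 to 8 in MED12, 13 to 20 in MED14, 0 to 2 in MED26, 3 to 6 in MED28, 1 to 2 in MED31, 0 to 2 between MED12 and untagged cells, 1 to 5 for THAL-SNS-032 against the CDK9 line, and 1 to 7 between dBET6 and THAL-SNS-032.

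Without dTAG7 A the MED6 line had 3 TMM calls, of which 2 were lower and 1 higher, against 1 lower and 3 higher with all libraries. Few counts limit UBE2C in all groups and the low members in the CDK9, dBET6 and THAL-SNS-032 libraries.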

Other observations

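Promoter letters were counted in the members that fell relative to other transcripts in the CDK9 line and in the others. Of the 21 that fell, 18 had a RefSeq window, of which 11 held CHR letters, 16 held CCAAT and 11 held both. Of the other 19 members, 16 had a window, of which 14 held CHR letters, 13 held CCAAT and 12 held both. These are counts over members chosen with the changes known, and no test was made.

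Between the CDK9 line and dBET6, which have separate DMSO libraries, the TMM changes of the 40 members had Pearson's r = 0.519, and 0.851 over the 39 members other than UBE2C, against 0.668 over 12973 genes. UBE2C had 0 counts in 2 of the 3 dBET6 libraries, so its fitted change carries little information.

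E2F7, a repressor of the E2F family, rose on the spike-in scale in the MED28 line (0.90), the MED10 line (0.79) and the MED14 line (0.72). GINS3, a subunit of the replicative helicase, had the lowest TMM change of the S phase list in the CDK9 line (-2.46), with CDC6, which loads the helicase, at -1.69, while POLA1, the catalytic subunit of the primase polymerase, rose by 1.37. In the MED28 line DEPDC1, a gene of the mitosis list, rose by 0.76 ± 0.10 on the TMM scale and KIF18A by 0.54 ± 0.15.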
